A study of Mus musculus with 9 samples.

Results

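The genes described here drive DNA replication and the cell cycle: cyclins and cyclin-dependent kinases, the factors that load and fire replication origins, the polymerases and nucleotide enzymes that copy DNA, and the machinery of mitosis. The list held 40 genes, whose probes were matched by RefSeq accession. All 40 had a probe and 39 were tested, among 15013 genes tested of 20660 named on the array. The exception was Ccne2, the gene of cyclin E2, whose single probe was well above background on 1 of 9 arrays. The members fell into 8 G1/S regulators (7 tested), 10 genes of origin licensing, 9 of the replication fork, 3 of nucleotide supply and 10 of mitosis.

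The samples were mouse embryonic stem (ES) cells of 3 genotypes, wild type, PKM1 knock-in and PKM2 knock-in, the last 2 named for splice forms of pyruvate kinase M, an enzyme of glycolysis. Each line was sampled at day 0, as undifferentiated cells in medium with the self-renewal factor LIF, and at day 3 and day 7, as embryoid bodies floating in medium without LIF. There were 9 single-colour Agilent arrays, 1 for each line and day, so that a day was repeated only across lines and a line only across days. A genotype is represented by 1 cell line, how the knock-in alleles were made is not given in the sources used here, and p-values reflect no spread beyond that between these arrays, which may be technical.

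In G1, D-type cyclins with CDK4 and cyclin E with CDK2 inactivate the retinoblastoma proteins and release E2F factors, which switch on the genes of S phase. Origins are licensed when ORC, CDC6 and CDT1 load the MCM helicase, and the GINS proteins and MCM10 then help to turn the helicase into a moving fork with PCNA and the polymerases, while cyclin B with CDK1, the Aurora and Polo kinases and the spindle checkpoint run mitosis. Mouse ES cells are known for a short G1 phase with high cyclin E and low D-type cyclin activity, and G1 lengthens as they differentiate. In bulk RNA, fewer cells of a kind and less RNA per cell cannot be told apart.

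The share of spots well above background was 54.2 to 61.6 percent per array, with 0 saturated spots. All 39 tested members were well above background on all 9 arrays. Values below are log2 signals after scaling each array to its 75th percentile, with differences on the same log2 scale. Slide 1 held 5 arrays, slide 2 held 3 and slide 3 held the PKM2 knock-in day 7 array alone. That array and its slide thus cannot be told apart. In wild type days 0 and 7 were on slide 1 and day 3 on slide 2, and in PKM1 knock-in the reverse. In PKM2 knock-in days 0 and 3 were on slide 1. All 8 ES cell markers were well above background on every array. Their summed signal was 388812 to 460870 at day 0, 358802 to 405221 at day 3 and 187423 to 417297 at day 7, lowest in PKM1 knock-in at day 7. Of 12 fibroblast and feeder cell markers, 10 to 11 were well above background at day 0, 6 to 9 at day 3 and 6 to 11 at day 7. Their summed signal was 4675 to 19205 at day 0, 751 to 1786 at day 3 and 598 to 6089 at day 7. Of 12 visceral endoderm markers, 4 to 8, 6 to 8 and 10 to 12 were well above background at days 0, 3 and 7. Their summed signal was 779 to 966, 364 to 879 and 3681 to 480968, highest in PKM1 knock-in at day 7, where wild type stood at 10199 and PKM2 knock-in at 3681. These lists moved with the days and lines compared below, and their part in the values of the cell cycle genes was not tested.

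The regions before the start sites are shown because the members of a class differed in the same direction, and cell cycle genes are textbook targets of E2F and of the complexes that bind the CHR element and the CCAAT box. RefSeq windows of 250 bases upstream of the start (build GRCm38.p6) were found for 30 members, in 32 windows. The E2F element (TTTGGCGC, TTTCGCGC, TTTCCCGC or TTTGCCGC, either strand) was in 9 of 32 windows (28.1%), beside 1.86% of all 32851 windows and 2.99% of the 15052 windows of tested genes. The CHR element (TTTGAA, either strand) was in 6 (18.8%), beside 16% and 11.1%. The CCAAT box (CCAAT, either strand) was in 24 (75%), beside 33.8% and 35.1%. By role, 5 of 10 licensing windows held the E2F element (Cdc6, Mcm5, Mcm6, Mcm7 and Orc1), and 4 of 8 mitosis windows held the CHR element (Cdc20, Cdk1, Mki67 and Top2a). All 8 mitosis windows held a CCAAT box. A match is a description of the letters and not a binding site. The windows printed are the helicase subunit genes Mcm5 (chr8:75109259-75109508, plus strand) and Mcm6 (chr1:128359706-128359955, minus strand), the mitotic genes Cdk1 (chr10:69352913-69353162, minus strand) and Cdc20 (chr4:118437344-118437593, minus strand), and Ccne1 (chr7:38107491-38107740, minus strand), the member with the largest difference between days. Each runs 5′ to 3′ on the gene's own strand and ends just before the start, with matches to the motifs in capitals. In Mcm5 and Mcm6 an E2F match on one strand overlapped another E2F match on the opposite strand, and no matches of different motifs overlapped.
Mcm5: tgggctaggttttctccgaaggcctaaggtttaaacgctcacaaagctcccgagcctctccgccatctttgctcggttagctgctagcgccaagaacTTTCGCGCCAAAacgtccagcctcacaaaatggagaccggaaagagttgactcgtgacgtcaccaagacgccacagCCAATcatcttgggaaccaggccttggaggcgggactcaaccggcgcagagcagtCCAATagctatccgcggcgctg
Mcm6: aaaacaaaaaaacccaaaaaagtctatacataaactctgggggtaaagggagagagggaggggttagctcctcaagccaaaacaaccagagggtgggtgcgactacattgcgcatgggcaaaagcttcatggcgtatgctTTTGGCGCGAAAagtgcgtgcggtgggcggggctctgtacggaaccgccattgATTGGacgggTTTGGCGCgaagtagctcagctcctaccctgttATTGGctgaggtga
Cdk1: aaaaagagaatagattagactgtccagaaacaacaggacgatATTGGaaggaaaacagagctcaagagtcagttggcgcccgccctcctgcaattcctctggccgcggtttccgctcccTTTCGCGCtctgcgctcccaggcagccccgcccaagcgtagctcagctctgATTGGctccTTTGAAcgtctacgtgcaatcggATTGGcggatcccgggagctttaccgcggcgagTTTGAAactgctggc
Cdc20: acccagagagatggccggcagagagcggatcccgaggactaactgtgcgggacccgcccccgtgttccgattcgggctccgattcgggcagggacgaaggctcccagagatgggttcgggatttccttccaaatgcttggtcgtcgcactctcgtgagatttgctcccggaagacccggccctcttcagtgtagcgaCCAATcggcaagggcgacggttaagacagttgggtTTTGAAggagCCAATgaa
Ccne1: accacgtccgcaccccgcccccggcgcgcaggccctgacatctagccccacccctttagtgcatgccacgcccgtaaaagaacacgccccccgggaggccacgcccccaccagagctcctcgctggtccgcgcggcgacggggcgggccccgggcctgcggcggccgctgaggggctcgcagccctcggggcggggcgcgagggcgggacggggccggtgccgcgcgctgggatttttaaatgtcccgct
Mcm5 had E2F matches starting 153 and 149 bases before the start and CCAAT boxes at 77 and 22. Mcm6 had E2F matches at 110, 106 and 47 bases and CCAAT boxes at 57 and 14. Cdk1 had an E2F match at 131 bases, CHR elements at 71 and 15 and CCAAT boxes at 208, 80 and 48. Cdc20 had CCAAT boxes at 53 and 8 bases with 1 CHR element between them. The Ccne1 window held none of these letters.

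Across the members, signal was higher at day 3 than at day 0 and lower at day 7 than at day 3, and this was plainer in wild type and PKM1 knock-in than in PKM2 knock-in. From day 0 to day 3, 34 of 39 members were higher, with a median log2 difference of 0.40 beside 0.10 over all genes tested. By line the median was 0.66 in wild type, 0.42 in PKM1 knock-in and 0.12 in PKM2 knock-in. Only in PKM2 knock-in were the arrays of both days on the same slide. In limma, 0 of 39 members passed an adjusted p of 0.05 for day 3 against day 0, beside 4.04% of all genes, and 9 had an unadjusted p under 0.05 in the higher direction, beside 16.3%. In 16 of 39 members all 3 day 3 arrays lay above all 3 day 0 arrays, beside 22.7% of all genes. Both shares stood against a background in which many genes were higher at day 3. The median was 0.42 within slide 1 and 0.39 within slide 2, over arrays of partly different lines, so that line and day were mixed there. Without the PKM2 knock-in day 3 array it was 0.65, and without the wild type line 0.27. Scaled to the probes detected on all arrays, which moved the median of all genes from 0.10 to -0.08, the members stood at 0.23, and under this scaling and under quantile normalization (0.21) 31 were higher, with Ccnb1, Ccnd3 and Cdt1 turning lower.

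**Figure D1:**
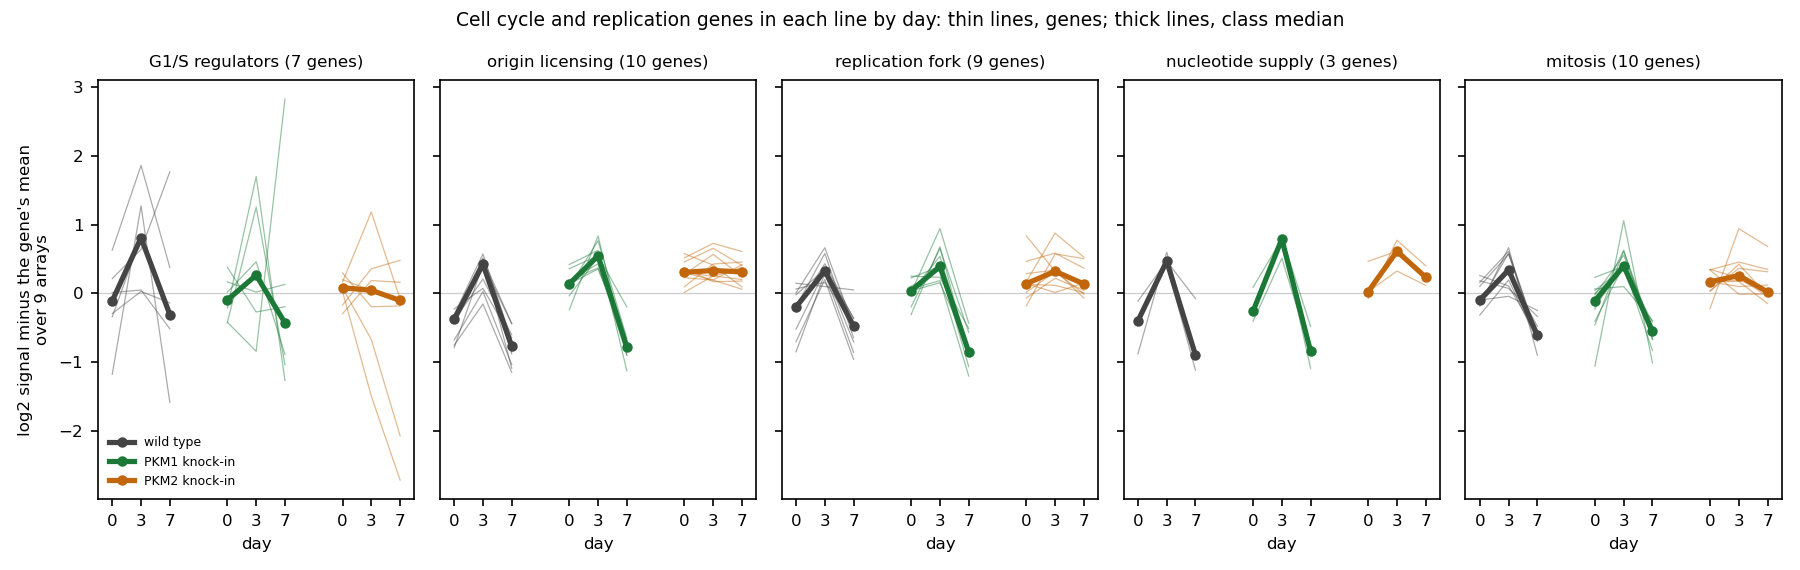
Log2 signal of each member minus its mean over 9 arrays (vertical axis) by day (horizontal axis) in wild type, PKM1 knock-in and PKM2 knock-in, 1 panel per role class, with thin lines for genes and thick lines for class medians. Class medians peak at day 3 and are lowest at day 7 in wild type and PKM1 knock-in, while those of PKM2 knock-in lie between -0.10 and 0.31 at day 7.

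The larger difference lay between day 3 and day 7. There 38 of 39 members were lower, with a median of -0.84 beside -0.13 over all genes tested, and Ccnd2 was the exception. By line the median was -1.03 in wild type, -1.30 in PKM1 knock-in and -0.17 in PKM2 knock-in. No line had its day 3 and day 7 arrays on the same slide. With limma 0 of 39 members, and 0 of 15013 genes (0%), passed the adjusted threshold for day 7 against day 3, while 28 of 39 members had an unadjusted p under 0.05 in the lower direction, beside 19.0% of all genes. In 20 members all 3 day 7 arrays lay below all 3 day 3 arrays, beside 21.5%. Within slide 1 the median was -0.95 and within slide 2 it was -1.19, over arrays of different lines. The PKM2 knock-in day 7 array decided the calls: without it 20 members passed, 19 of them lower, among 2607 genes, and the median was -1.03. Without the PKM1 knock-in day 7 array the median was -0.54, and without that line -0.56. Without the whole PKM2 knock-in line 15 members passed, all lower, among 1538 genes. Quantile normalization left 34 lower (median -0.55), with Ccnd3, Cdk4, Gins3 and Mki67 turning higher, and scaling to detected probes left 37 (median -0.64), with Cdk2 turning higher while all genes moved to 0.07.

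**Figure D2:**
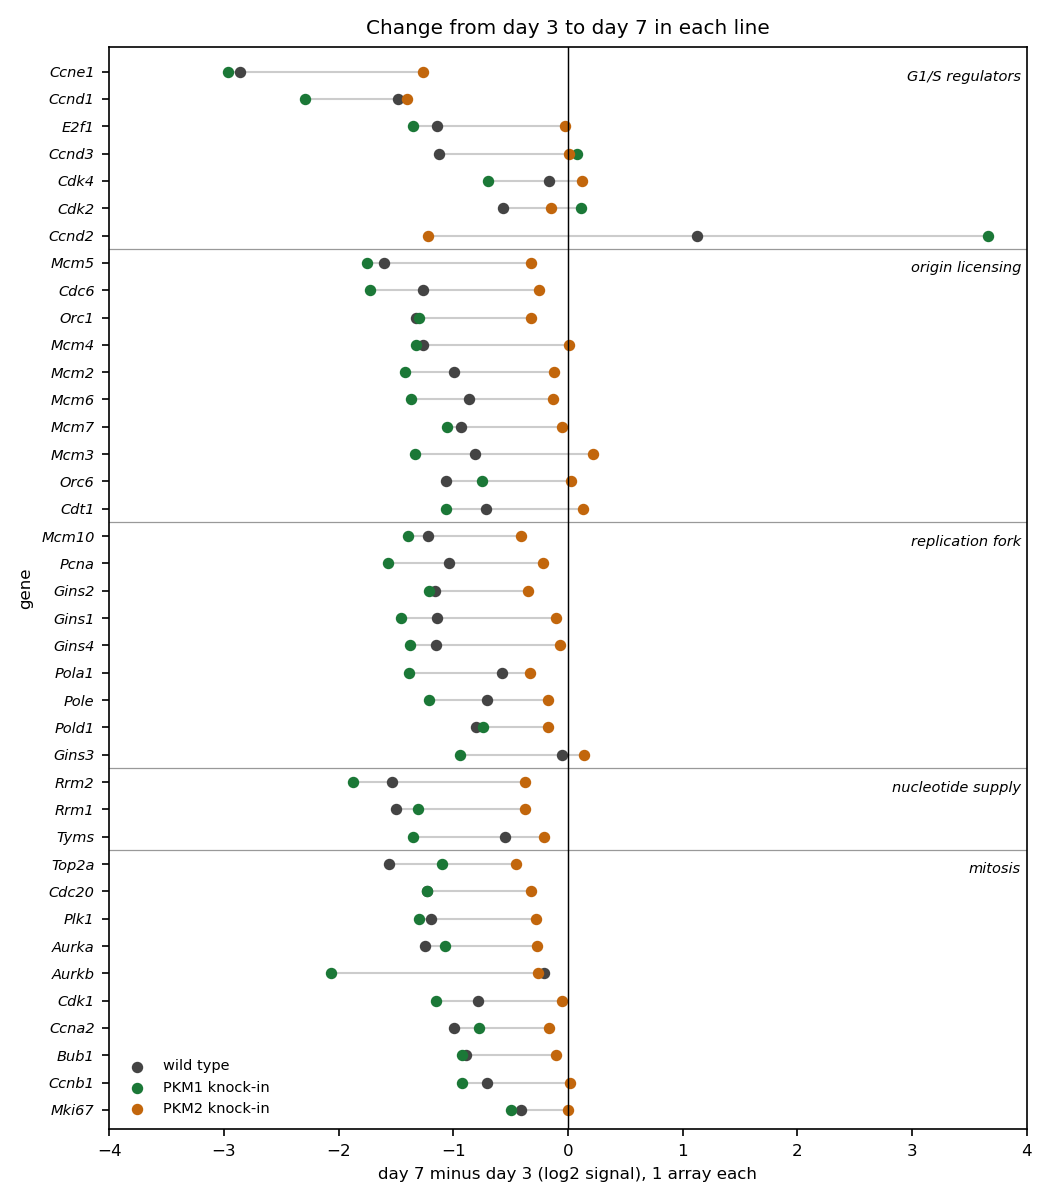
Day 7 minus day 3 in log2 signal (horizontal axis) for each of the 39 members (vertical axis, by role), with 1 point per line. Wild type and PKM1 knock-in points lie below 0 for most genes. PKM2 knock-in points lie near 0 for most genes, with a median of -0.17, but at -1.40, -1.22 and -1.26 for Ccnd1, Ccnd2 and Ccne1.

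Within a line, day 3 was the highest of the 3 days in 35 of 39 members in wild type, 35 in PKM1 knock-in and 22 in PKM2 knock-in, beside 48.5%, 43.2% and 37.5% of all genes. Day 7 was the lowest in 35, 35 and 18 members, beside 37.5%, 48.1% and 28.8%. All 10 licensing genes had day 3 highest and day 7 lowest in both wild type and PKM1 knock-in, against 2 of 10 in PKM2 knock-in. Whether the time course differed between lines was not tested, because an interaction of line and day leaves no residual degrees of freedom with 1 array each. Day 7 against day 0 was the smaller comparison: 34 of 39 members were lower, with a median of -0.34 beside -0.04 over all genes, and -0.36, -0.62 and -0.05 in wild type, PKM1 knock-in and PKM2 knock-in. For it limma called 0 members, beside 0.0999% of genes, 2 had an unadjusted p under 0.05 in the lower direction, beside 7.07%, and 3 did not overlap, beside 8.71%. Those 3 were Pola1, Cdc20 and Mki67. Without the PKM2 knock-in day 7 array the median was -0.56, and without the PKM1 knock-in line it was -0.19 and without that line's day 7 array -0.17, with 30 lower. An F test over days called 0 members, beside 1.17% of genes, with Ccne1 (adjusted p = 0.0582) and Rrm1 (0.0861) the lowest.

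The role classes differed in size of change more than in direction, and no test between classes was made. For day 3 against day 0 the class medians were 0.40 for G1/S regulators, 0.41 for origin licensing, 0.31 for the replication fork, 0.60 for nucleotide supply and 0.39 for mitosis. For day 7 against day 3 they were -0.35, -0.82, -0.86, -1.06 and -0.75 in the same order. The 22 replication genes of these classes stood at 0.42 and then at -0.85. On average over the lines, 22 of 22 were lower at day 7 than at day 3. So were 10 of 10 mitosis genes and 6 of 7 G1/S regulators. In PKM2 knock-in taken alone these counts were 17, 8 and 5.

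Among the G1/S regulators, Ccne1, which encodes cyclin E1, the partner of CDK2 at the start of S phase, had the largest differences of the members from day 0 to day 3 and from day 3 to day 7. Ccne1 measured, in log2 signal at days 0, 3 and 7, 12.59, 15.04 and 12.19 in wild type, 13.56, 15.47 and 12.50 in PKM1 knock-in, and 13.94, 14.95 and 13.69 in PKM2 knock-in. All 3 day 3 arrays lay above all 6 others, and at days 0 and 7 PKM2 knock-in was the highest and wild type the lowest. The day 3 difference from day 0 was 1.79 ± 0.37 (SE, n = 3 lines), 3.46-fold, with a limma adjusted p of 0.0507 and a range of 0.0256 to 0.373 over 25 alternatives, of which 10 passed. Day 7 against day 3 gave -2.36 ± 0.37, 5.13-fold lower, with adjusted p = 0.0702 and a range of 0.0171 to 0.419, of which 6 passed. The second Ccne1 probe gave 1.32 and -2.19. Within slide 1 the differences were 1.94 and -3.02, and within slide 2 they were 1.49 and -2.54, again over arrays of different lines. Ccne2, the related cyclin E gene, was well above background only in wild type at day 0 and has no tested value.

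The D-type cyclins, which respond to growth signals and activate CDK4, each had a course of their own. Ccnd1 stood at a log2 signal of 11.85, 13.08 and 11.60 in wild type, 10.80, 12.47 and 10.18 in PKM1 knock-in, and 11.30, 10.55 and 9.15 in PKM2 knock-in, at days 0, 3 and 7 each. Day 3 was thus the highest in wild type and PKM1 knock-in and lay between the other days in PKM2 knock-in. Day 7 against day 3 was -1.72 ± 0.47 (adjusted p = 0.0945, lower in 3 of 3 lines), and day 3 against day 0 was 0.72 ± 0.47 (adjusted p = 0.377, higher in 2 of 3 lines).

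Ccnd2 was the member with a higher mean at day 7 than at day 3. Its signal at days 0, 3 and 7 was 9.60, 10.02 and 11.15 in wild type, 8.96, 8.54 and 12.21 in PKM1 knock-in, and 9.41, 7.89 and 6.67 in PKM2 knock-in. At day 7 the lines were further apart for Ccnd2 than at day 0, with PKM1 knock-in highest and PKM2 knock-in lowest. Day 7 against day 3 was 1.19 ± 1.06 (adjusted p = 0.470), and the differences were 1.13, 3.67 and -1.22 in wild type, PKM1 knock-in and PKM2 knock-in. Without the PKM2 knock-in day 7 array Ccnd2 passed the threshold, in the higher direction. Ccnd3 stood at 14.10, 15.26 and 14.13 in wild type, 14.82, 14.17 and 14.24 in PKM1 knock-in, and 14.73, 14.24 and 14.25 in PKM2 knock-in. Only the wild type day 3 array of Ccnd3 stood apart, and its day 3 difference was 0.01 ± 0.36 (adjusted p = 0.994).

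**Figure D3:**
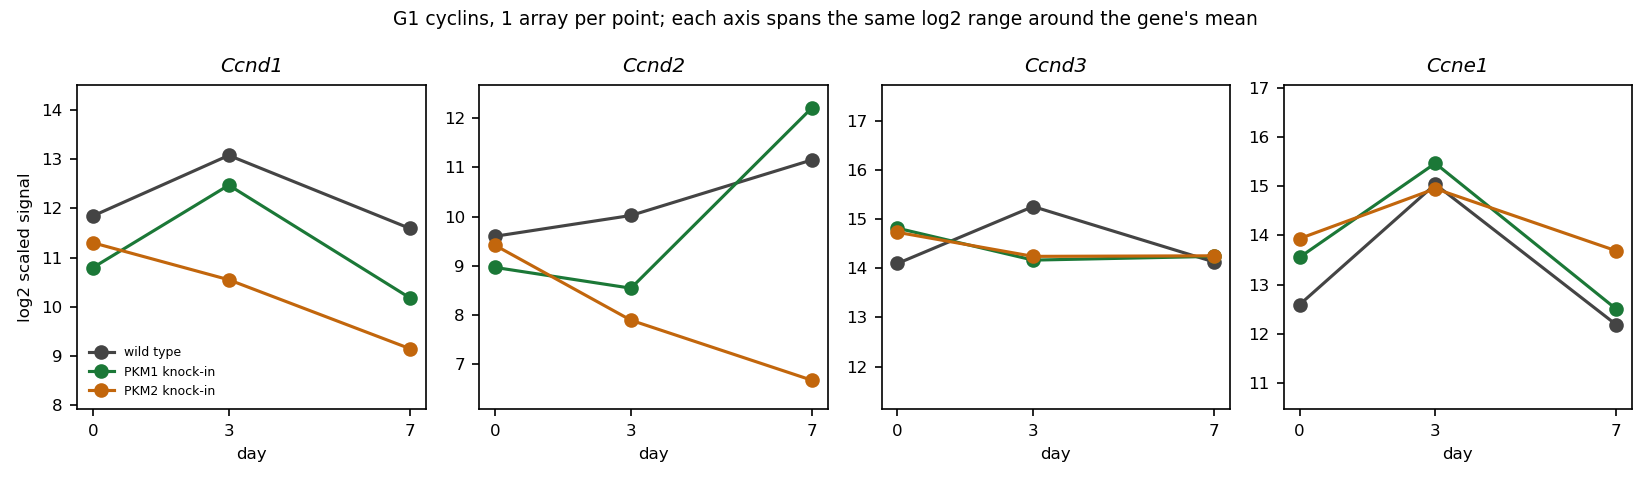
Log2 scaled signal (vertical axis) of Ccnd1, Ccnd2, Ccnd3 and Ccne1 by day (horizontal axis) in each line, 1 array per point, on axes of equal span. Ccnd2 at day 7 runs from 6.67 in PKM2 knock-in to 12.21 in PKM1 knock-in, while Ccne1 peaks at day 3 in all 3 lines.

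E2f1, the transcription factor gene that is both a driver and a target of S phase entry, stood at 11.02, 11.93 and 10.79 in wild type, 11.14, 11.58 and 10.23 in PKM1 knock-in, and 10.83, 11.31 and 11.28 in PKM2 knock-in. Day 3 exceeded day 0 without overlap and day 7 lay below day 3 without overlap. The differences were 0.61 ± 0.31 (adjusted p = 0.264) and -0.84 ± 0.31 (adjusted p = 0.135). The kinase genes differed less: Cdk4 by 0.40 ± 0.24 and Cdk2 by -0.09 ± 0.20 at day 3 against day 0, with adjusted p of 0.321 and 0.816. From day 3 to day 7 they differed by -0.25 and -0.20.

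On average over the lines, all 10 licensing genes were higher at day 3 than at day 0 and lower at day 7 than at day 3. In PKM2 knock-in taken alone, 5 of 10 were higher at day 3 and 6 of 10 were lower at day 7. Cdt1 turned lower at day 3 under quantile normalization and under scaling to detected probes. Mcm5, a subunit of the MCM2 to MCM7 helicase, had a log2 signal of 13.97, 14.91 and 13.31 in wild type at days 0, 3 and 7, 14.82, 15.02 and 13.27 in PKM1 knock-in, and 14.67, 14.96 and 14.64 in PKM2 knock-in. Its day 7 arrays all lay below its day 3 arrays, with wild type and PKM1 knock-in far below and PKM2 knock-in just below. Day 7 against day 3 was -1.22 ± 0.34 (2.34-fold lower, adjusted p = 0.0962). Cdc6, which loads the helicase, stood at 9.53, 10.74 and 9.47 in wild type, 10.08, 11.16 and 9.43 in PKM1 knock-in, and 10.78, 10.98 and 10.73 in PKM2 knock-in. Its day 7 and day 3 arrays did not overlap, by the width between 10.73 and 10.74. The difference was -1.08 ± 0.31 (adjusted p = 0.0962), and the second Cdc6 probe gave -0.66. Orc1, the largest subunit of the origin recognition complex, stood at 9.32, 10.13 and 8.80, then 9.65, 10.21 and 8.91, and then 10.26, 10.09 and 9.78 in the same order of lines. It differed by -0.98 ± 0.26 from day 3 to day 7 (adjusted p = 0.0908), and in PKM2 knock-in its highest array was day 0.

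The other helicase genes lay close together. From day 3 to day 7, Mcm2, Mcm3, Mcm4, Mcm6 and Mcm7 differed by -0.84, -0.64, -0.86, -0.79 and -0.68. In PKM2 knock-in these 5 differences ran from -0.13 to 0.22, with Mcm3 and Mcm4 at or above 0, and in PKM1 knock-in from -1.42 to -1.05. Orc6 and the helicase loader gene Cdt1 had the smallest differences of the class, -0.59 ± 0.26 and -0.55 ± 0.26, and both were above 0 in PKM2 knock-in (0.03 and 0.13). Of the 10 licensing genes, 7 had an unadjusted p under 0.05 in the lower direction for day 7 against day 3, beside 19.0% of all genes. Day 7 lay below day 3 without overlap in 5 (Cdc6, Orc1, Mcm5, Mcm6 and Mcm7), beside 21.5%. All 5 of these had an E2F match in the upstream window, and 0 of the 4 other licensing genes with a window had one. Elsewhere, genes without overlap held one in 0 of 2 (G1/S), 1 of 3 (fork), 0 of 3 (nucleotide supply) and 0 of 4 (mitosis). Those with overlap held one in 1 of 3, 1 of 2 and 1 of 4 for G1/S, the fork and mitosis. The split was thus seen in licensing alone. Over all 30 members with a window, licensing included, 6 of 17 without overlap and 3 of 13 with overlap had a match. The split was noticed after the values were seen and was not tested. It also rests on the brightest Cdc6 probe. By the second Cdc6 probe the days overlapped, with PKM2 knock-in at day 7 (9.21) above PKM1 knock-in at day 3 (8.97).

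At the replication fork, Mcm10, which helps to activate the helicase, stood at 13.25, 14.03 and 12.80 in wild type at days 0, 3 and 7, 13.47, 13.99 and 12.59 in PKM1 knock-in, and 13.74, 13.79 and 13.38 in PKM2 knock-in. Day 7 was the lowest in every line and did not overlap with day 3. The difference was -1.01 ± 0.24 (2.01-fold lower, adjusted p = 0.0850). Pcna, the sliding clamp that holds the polymerases on DNA, stood at 14.72, 15.57 and 14.53 in wild type, 14.93, 15.91 and 14.35 in PKM1 knock-in, and 15.70, 15.82 and 15.60 in PKM2 knock-in. All 3 PKM2 knock-in arrays of Pcna lay within 15.60 to 15.82, while the day 3 array stood well above the others in wild type and PKM1 knock-in. Pcna differed by 0.65 ± 0.28 at day 3 against day 0 (adjusted p = 0.197) and by -0.94 ± 0.28 at day 7 against day 3 (adjusted p = 0.100).

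The 4 GINS genes encode the complex that joins the helicase at the fork. Gins2 stood at 10.61, 11.51 and 10.35 in wild type, 11.12, 11.96 and 10.75 in PKM1 knock-in, and 11.48, 12.19 and 11.84 in PKM2 knock-in. All 3 day 3 arrays of Gins2 lay above the 3 day 0 arrays, and PKM2 knock-in was the highest line on every day. Its day 3 difference was 0.82 ± 0.23 (adjusted p = 0.0952) and its day 7 difference from day 3 was -0.91 ± 0.23 (adjusted p = 0.0880). Gins4 had the largest day 3 difference of the class, 0.94 ± 0.29 (adjusted p = 0.110). Gins3 had the smallest difference from day 3 to day 7, -0.29 ± 0.25, with -0.05, -0.94 and 0.14 in wild type, PKM1 knock-in and PKM2 knock-in. The catalytic polymerase genes Pola1, Pold1 and Pole differed by -0.76, -0.57 and -0.70 from day 3 to day 7, each lower in 3 of 3 lines. Pola1, the polymerase that starts new strands, was also lower at day 7 than at day 0 without overlap (-0.87 ± 0.26, adjusted p = 0.228).

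The nucleotide supply genes make deoxynucleotides for S phase. Rrm1, the large subunit of ribonucleotide reductase, stood at 11.54, 13.02 and 11.53 in wild type at days 0, 3 and 7, 12.16, 13.25 and 11.94 in PKM1 knock-in, and 12.35, 13.19 and 12.82 in PKM2 knock-in. The 3 day 3 arrays lay above the 6 others. The differences were 1.14 ± 0.26 at day 3 against day 0 (2.20-fold, adjusted p = 0.0629, 0.0304 to 0.420 over alternatives) and -1.06 ± 0.26 at day 7 against day 3 (adjusted p = 0.0854). Rrm2, the small subunit, whose level is known to peak in S phase, stood at 13.90, 14.71 and 13.18, then 14.39, 15.09 and 13.21, and then 14.76, 14.91 and 14.53. Its day 7 arrays lay below its day 3 arrays in every line, by -1.26 ± 0.30 (2.40-fold lower, adjusted p = 0.0848). Tyms, thymidylate synthase, stood at 8.01, 8.60 and 8.05, then 7.72, 8.64 and 7.29, and then 8.15, 8.45 and 8.25, with a difference of -0.70 ± 0.25 from day 3 to day 7 (adjusted p = 0.126).

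Of the mitosis genes, Top2a, the topoisomerase that untangles sister chromatids, stood at 12.44, 13.29 and 11.73 in wild type, 12.60, 13.18 and 12.08 in PKM1 knock-in, and 12.66, 13.05 and 12.59 in PKM2 knock-in. Its 3 day 3 arrays lay above the 6 others. Day 7 against day 3 was -1.04 ± 0.24 (2.05-fold lower, adjusted p = 0.0834). Cdc20, the activator of the anaphase-promoting complex, stood at 15.04, 15.51 and 14.28, then 15.17, 15.33 and 14.11, and then 15.11, 15.11 and 14.79. Its day 7 arrays lay below all others, with -0.92 ± 0.24 against day 3 (adjusted p = 0.0896) and -0.71 ± 0.24 against day 0 (adjusted p = 0.275). Plk1, the Polo kinase of mitotic entry, stood at 14.05, 14.77 and 13.58, then 13.96, 14.81 and 13.51, and then 14.31, 14.48 and 14.20, and differed by -0.92 ± 0.24 from day 3 to day 7 (adjusted p = 0.0908).

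Mki67, the gene of the proliferation antigen Ki-67, differed least of the class from day 3 to day 7. Its signal was 13.77, 13.66 and 13.26 in wild type, 13.65, 13.69 and 13.19 in PKM1 knock-in, and 13.93, 13.58 and 13.58 in PKM2 knock-in. Every day 7 array of Mki67 lay below every day 0 array, by -0.44 ± 0.19 (adjusted p = 0.350), while day 7 against day 3 was -0.30 ± 0.19 (adjusted p = 0.307). The Aurora kinase gene Aurkb had the largest day 3 difference of the class, 1.11 ± 0.44 (adjusted p = 0.176). This was made of 0.05 in wild type, 2.11 in PKM1 knock-in and 1.16 in PKM2 knock-in. The Aurkb probe was the dimmest of the class, at 5.33 to 7.44 over the arrays. Aurka and the checkpoint kinase gene Bub1 differed by -0.86 and -0.64 from day 3 to day 7, and the cyclin genes Ccna2 and Ccnb1 by -0.64 and -0.54. Cdk1, the kinase of mitotic entry, was -0.66 ± 0.25 (adjusted p = 0.143) by its brightest probe and -0.54 by a second, but 0.66 by the third. The probes of Cdk1 had opposite signs in all 6 contrasts, so that its direction rests on the probe chosen. Of 48 comparisons of probes in 8 members with several, 11 had opposite signs, 6 of them in Cdk1.

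Between the lines, replication genes were higher in PKM2 knock-in than in wild type at days 0 and 7, but not at day 3. For PKM2 knock-in against wild type, 35 of 39 members were higher, with a median of 0.28 beside 0.04 over all genes. By day the median was 0.34 at day 0, -0.04 at day 3 and 0.64 at day 7. In limma 0 members passed the adjusted threshold, beside 0.0133% of genes, and 11 had an unadjusted p under 0.05 in the higher direction, beside 6.23%, and 1 (Ccnd1) in the lower, beside 7.07%. In 5 members (Mcm2, Orc6, Cdt1, Pcna and Bub1) all 3 PKM2 knock-in arrays lay above all 3 wild type arrays, beside 7.93% of genes. Without the PKM2 knock-in day 7 array 25 were higher and 14 lower, with a median of 0.07. Without that line's day 3 array the median was 0.52. With the slide as a block, which leaves out the PKM2 knock-in day 7 array, 26 were higher with a median of 0.09, and quantile normalization left 29 higher with a median of 0.18. By class the medians were 0.60 for licensing (10 of 10 higher), 0.27 for the fork (9 of 9), 0.76 for nucleotide supply (3 of 3), 0.22 for mitosis (10 of 10) and -0.08 for G1/S regulators (3 of 7 higher). Without the PKM2 knock-in day 7 array these counts were 9 of 10 (median 0.29), 5 of 9 (0.07), 2 of 3 (0.46), 6 of 10 (0.04) and 3 of 7 (-0.14). The fibroblast and feeder cell markers moved with this comparison: their summed signal in PKM2 knock-in was 4675, 751 and 598 at days 0, 3 and 7, beside 19205, 1786 and 4414 for wild type. PKM2 knock-in was the lowest line for them on every day, and their part in the difference was not tested.

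**Figure D4:**
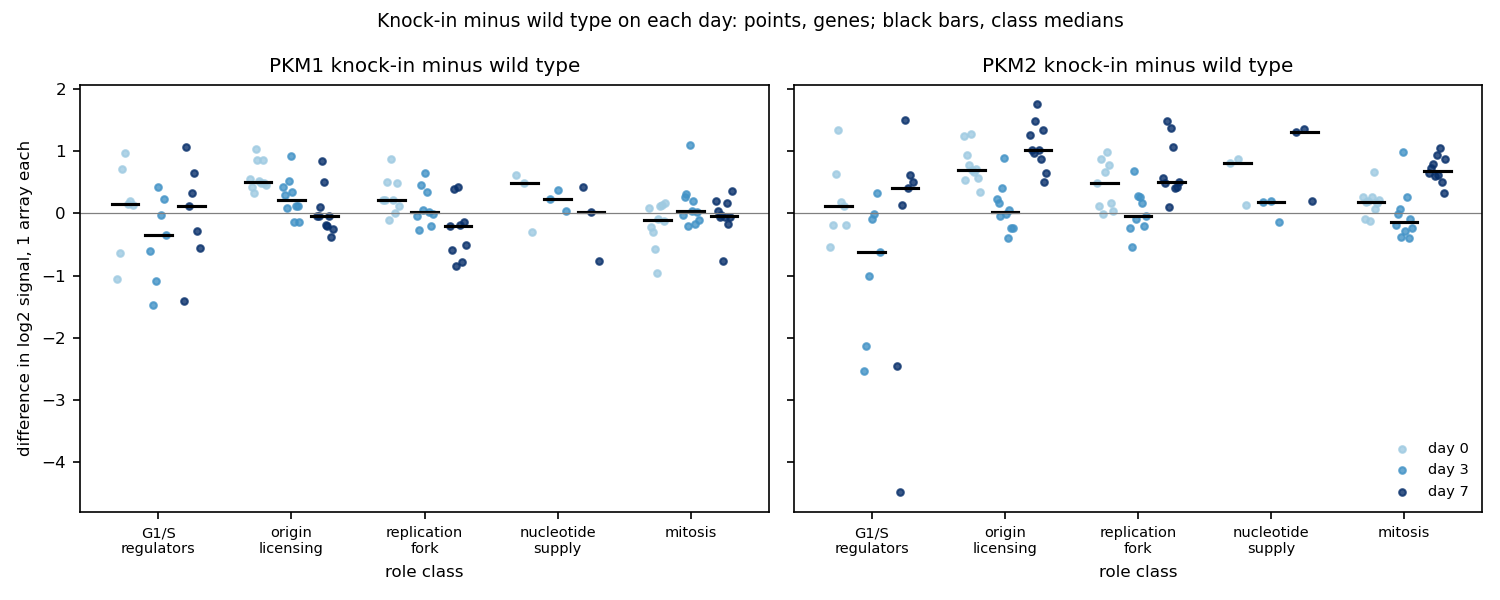
Difference in log2 signal from wild type (vertical axis) of each member by role class (horizontal axis), for PKM1 knock-in and PKM2 knock-in, with points for genes on days 0, 3 and 7 and black bars for class medians. For PKM2 knock-in the licensing medians are 0.70, 0.02 and 1.02 at days 0, 3 and 7, and for PKM1 knock-in they are 0.50, 0.21 and -0.05.

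Mcm2, a helicase subunit, had the largest difference among the replication genes. It stood at 12.41, 13.01 and 12.01 at days 0, 3 and 7 in wild type, 13.26, 13.92 and 12.51 in PKM1 knock-in, and 13.68, 13.89 and 13.77 in PKM2 knock-in. Every PKM2 knock-in array of Mcm2 lay above every wild type array. The difference over 3 days was 1.30 ± 0.27 (moderated SE, 2.47-fold, limma adjusted p = 0.132, 0.0841 to 0.517 over alternatives). PKM1 knock-in exceeded wild type by 0.75 ± 0.27 for Mcm2 and by 0.80 ± 0.26 for Orc6, on 3 of 3 days each (adjusted p = 0.338 and 0.299). Orc6 in PKM2 knock-in was higher than wild type by 0.89 ± 0.26 (adjusted p = 0.228) and Gins2 by 1.01 ± 0.23 (adjusted p = 0.147). Ccnd1 differed by -1.84 ± 0.47 (adjusted p = 0.183), with -0.55, -2.53 and -2.44 at days 0, 3 and 7. Ccnd2 was also lower on 3 of 3 days, by -0.19, -2.13 and -4.48, with an adjusted p of 0.422. An F test over lines called 0 members, beside 0.0133% of genes, with Mcm2 the lowest at an adjusted p of 0.220.

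PKM1 knock-in and wild type were closer. There 23 of 39 members were higher in PKM1 knock-in, with a median of 0.05 beside 0.03 over all genes, and quantile normalization gave -0.05. For PKM1 knock-in against wild type limma called 0 members, beside 0.0133% of genes. At an unadjusted p under 0.05 there were 2 higher, Mcm2 and Orc6, beside 5.74%, and 0 members were higher without overlap, beside 4.90%. Without the wild type day 3 array the median was 0.19. Licensing genes were higher in 10 of 10, with medians of 0.50, 0.21 and -0.05 at days 0, 3 and 7. That count was 7 of 10 under quantile normalization and without the wild type day 0, PKM1 knock-in day 0 or PKM1 knock-in day 3 array, with Mcm4, Mcm6 and Mcm7 turning lower each time. Against PKM1 knock-in, 36 of 39 members were higher in PKM2 knock-in, with a median of 0.30 beside 0.02, made of 0.18 at day 0, -0.14 at day 3 and 0.90 at day 7. For that comparison limma called 0 members and 0 of 15013 genes (0%). At an unadjusted p under 0.05, 2 members (Gins2 and Pola1) were higher, beside 3.56%, and 0 were higher without overlap, beside 3.40%. Without the PKM2 knock-in day 7 array 22 members were higher and 17 lower, with a median of 0.02, and without day 7 as a whole 19 were higher and 20 lower. Without the PKM1 knock-in day 7 array the median was 0.08, without the PKM2 knock-in day 3 array it was 0.50, and with the slide as a block 24 were higher (median 0.04). The comparisons with wild type share its 3 arrays, and those with PKM2 knock-in share that line's arrays.

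The spread between lines followed the days. The median range between the lines over the 39 members was 0.63 at day 0, 0.34 at day 3 and 1.04 at day 7, beside 0.56, 0.48 and 0.80 over all genes. PKM2 knock-in was the highest line in 23 members at day 0, 4 at day 3 and 36 at day 7, beside 34.5%, 28.4% and 46.6% of all genes. Wild type was the lowest in 28, 15 and 14, beside 40.0%, 36.0% and 28.6%. Arrays of the same day and slide allow 2 of these comparisons. PKM2 knock-in minus wild type at day 0, both on slide 1, was 0.34 in the median, and PKM2 knock-in minus PKM1 knock-in at day 3, both on slide 1, was -0.14.

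Genes of the same pathway outside the list were read from wider lists. Of 39 other replication genes, 34 were higher at day 3 than at day 0 (median 0.48), 2 of them called, beside 1.86% of all genes called in that direction (4.04% in either). At day 7, 38 were lower than at day 3 (median -0.68), none of them called, with 27 at an unadjusted p under 0.05 in the lower direction, beside 19.0%. Tk1, thymidine kinase, rose at day 3. Its signal at days 0, 3 and 7 was 11.10, 12.63 and 10.77 in wild type, 11.36, 13.07 and 11.49 in PKM1 knock-in, and 11.58, 12.78 and 11.69 in PKM2 knock-in. The 3 day 3 arrays lay above all others, by 1.48 ± 0.21 against day 0 (2.79-fold, adjusted p = 0.0290, 0.0120 to 0.264 over 25 alternatives, of which 14 passed). Pola2, a subunit of the polymerase that Pola1 belongs to, stood at 6.65, 8.17 and 6.89, then 7.12, 8.37 and 7.34, and then 7.47, 8.40 and 8.23 in the same order. It rose at day 3 by 1.23 ± 0.25 (2.35-fold, adjusted p = 0.0490, 0.0266 to 0.364, of which 9 passed). Of 40 other mitosis genes, 29 were higher at day 3 (median 0.32) and 39 were lower at day 7 than at day 3 (median -0.66), with 0 called by limma in either comparison, and an unadjusted p under 0.05 was met by 6 at day 3 in the higher direction, near the 16.3% of all genes, and by 26 at day 7 in the lower, beside 19.0%. The lowest p in this list for day 7 against day 3 was that of Ube2c, a ubiquitin-conjugating enzyme of mitotic exit, at 13.63, 14.51 and 13.06 in wild type, 13.52, 14.04 and 12.83 in PKM1 knock-in, and 13.45, 13.93 and 13.52 in PKM2 knock-in (-1.03 ± 0.25, adjusted p = 0.0848). Mad2l1, the spindle checkpoint gene MAD2, was next, at 11.47, 12.36 and 10.88, then 12.72, 13.62 and 12.11, and then 12.97, 13.34 and 13.10 in the same order (-1.08 ± 0.28, adjusted p = 0.0906). Between PKM2 knock-in and wild type, the other replication genes had a median of 0.28 and the other mitosis genes 0.20, with 0 called. An unadjusted p under 0.05 in the higher direction was met by 5 of 39 and 1 of 40, beside 6.23% of all genes. At days 0, 3 and 7 the medians were 0.30, -0.05 and 0.63 for replication and 0.22, -0.32 and 0.66 for mitosis. At day 3, 24 of 39 and 36 of 40 were lower in PKM2 knock-in. The day 7 values rest on the PKM2 knock-in array that is alone on its slide.

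Of the 7 CDK inhibitor genes, whose products brake the G1 kinases, 7 had a higher signal at day 7 than at day 3 in wild type. In PKM1 knock-in 6 did, with Cdkn2d the exception. In PKM2 knock-in 3 were higher (Cdkn1b, Cdkn2c and Cdkn2d) and 4 lower. These counts rest on 1 array per line and day, with 0 called by limma. At day 3, 6 were lower than at day 0 and 1 of these was called, beside 2.18% of all genes called in that direction. Cdkn2c, the gene of the CDK4 and CDK6 inhibitor p18, fell at day 3. It stood at 5.997, 4.26 and 4.85 in wild type, 5.03, 3.58 and 4.18 in PKM1 knock-in, and 5.95, 4.79 and 5.40 in PKM2 knock-in, and was well above background on 8 of 9 arrays. Its day 3 arrays all lay below its day 0 arrays, by -1.45 ± 0.20 (2.73-fold lower, adjusted p = 0.0246, up to 0.266 over 24 alternatives, of which 11 passed). From day 3 to day 7 all 7 inhibitors were higher on average over the lines, with a median of 0.73, and 1.71, 2.02 and -0.02 in wild type, PKM1 knock-in and PKM2 knock-in. None was called, and 3 had an unadjusted p under 0.05 in the higher direction, beside 11.5% of all genes. The inhibitors described next were chosen after their values were seen, and all are among the 4 that were lower in PKM2 knock-in. Cdkn2b, whose product inhibits CDK4 and CDK6, stood at 8.83, 7.74 and 11.35 in wild type, 7.77, 7.45 and 10.75 in PKM1 knock-in, and 7.73, 7.34 and 6.97 in PKM2 knock-in. At day 7 PKM2 knock-in was thus the lowest line for Cdkn2b, and the difference over lines was 2.18 ± 0.81 (adjusted p = 0.135). Cdkn2a gave 3.16, 2.68 and -0.02 from day 3 to day 7 in the 3 lines (1.94 ± 0.59, adjusted p = 0.103). For Cdkn1a, the p21 gene, the differences were 2.03, 2.52 and -0.78.

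**Figure D5:**
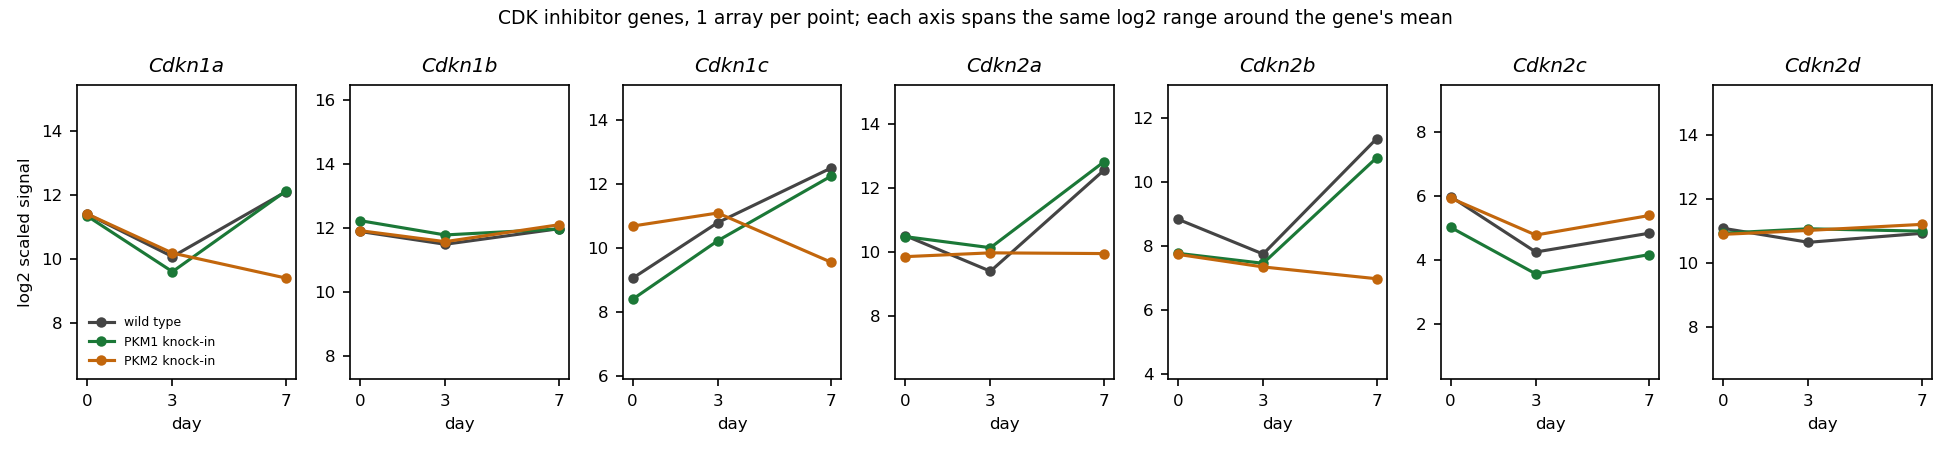
Log2 scaled signal (vertical axis) of the 7 CDK inhibitor genes by day (horizontal axis) in each line, 1 array per point, on axes of equal span. At day 7 wild type and PKM1 knock-in lie above PKM2 knock-in for Cdkn1a, Cdkn1c, Cdkn2a and Cdkn2b, with Cdkn2b at 11.35, 10.75 and 6.97. For Cdkn1b, Cdkn2c and Cdkn2d PKM2 knock-in is the highest line at day 7.

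In the Rb and E2F family, 9 of 12 genes were higher at day 3 (median 0.43) and 9 were lower at day 7 than at day 3 (median -0.48), with 0 called by limma. An unadjusted p under 0.05 was met by 4 of the higher and 1 of the lower genes at day 3, beside 16.3% and 10.1% of all genes, and by 6 of those lower at day 7, beside 19.0%. The 2 with the smallest p at day 3 were Tfdp1, the DNA-binding partner of E2F (0.92 ± 0.21, adjusted p = 0.0653), and Rbl1, the pocket protein p107 (-0.90 ± 0.22, adjusted p = 0.0709). Tfdp1 stood at 9.62, 10.58 and 9.43 in wild type at days 0, 3 and 7, 10.69, 11.43 and 10.10 in PKM1 knock-in, and 10.69, 11.72 and 10.92 in PKM2 knock-in, with wild type the lowest line on every day. Rbl1 stood at 9.17, 8.41 and 8.54, then 9.10, 7.70 and 8.21, and then 8.68, 8.14 and 8.16, with day 3 the lowest in each line. E2f8, a repressor of the family, had 10.85, 11.63 and 10.05, then 10.78, 12.05 and 9.90, and then 11.39, 11.97 and 11.21, and differed by -1.49 ± 0.28 from day 3 to day 7 (adjusted p = 0.0744). Of 8 other cyclins and G1 kinases, 7 were tested and 0 were called by limma in any contrast, while at day 3 against day 0 an unadjusted p under 0.05 was met by 1 higher and 1 lower gene, of 7, beside 16.3% and 10.1%. Among them Ccng2, a cyclin linked to cell cycle arrest, stood at 5.45, 4.84 and 5.65 in wild type, 7.04, 5.19 and 7.23 in PKM1 knock-in, and 6.40, 5.51 and 6.39 in PKM2 knock-in. Its difference was -1.12 ± 0.30 at day 3 against day 0 (adjusted p = 0.0861) and 1.24 ± 0.30 at day 7 against day 3 (adjusted p = 0.0847). Cdk7, the kinase that activates other CDKs, stood at 10.04, 10.75 and 9.99, then 10.44, 11.05 and 10.44, and then 10.54, 11.06 and 10.73, and differed by 0.61 ± 0.18 (adjusted p = 0.0989) and -0.57 ± 0.18 (adjusted p = 0.105) in these comparisons.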

How the data were processed

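Total RNA of 9 samples, 0.1 µg each, was labelled with Cy3, per the labels' protocols. The intensity values were deposited by the authors as scanner output of Agilent Feature Extraction 10.10, per the submitters' processing notes and the file headers, as a background-corrected processed signal per spot. The other columns used, flags for spots above background, saturated or of poor quality, come from the same deposited files, per the file headers.

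The 3671 control spots and 133 to 225 flagged spots per array were left out. Signals were scaled to equal 75th percentiles, floored at 5 and log2 transformed. Probes were named by RefSeq accession (27235 of 55681 had 1 symbol), kept where 3 or more of 9 arrays had them well above background, and the probe with the highest mean stood for a gene. limma 3.58.1 (R 4.3.3) fitted an additive model of line and day to all 9 arrays (4 residual degrees of freedom before moderation), with Benjamini-Hochberg adjustment over 15013 genes and a threshold of 0.05. Values after ± are the moderated standard errors of this fit. Values on every array were given by rule for the D-type and E-type cyclins, the 3 largest differences per role class, proliferation marks and, of each wider list, up to 4 called genes or, where none was called, the 2 with the smallest p for day 7 against day 3 (Rbl1 and the uncalled CDK inhibitors were added after their values were seen). The members, lists and rules were chosen with earlier results of these data known. In simulated arrays for day 3 against day 0 (15013 genes), 8, 76, 100 and 96 percent of genes shifted by 1, 2, 3 and 4 were called, 0 with the wrong sign, beside 6 unchanged genes.

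Alternatives were normexp background correction (offset 50, on the median foreground, the files holding no mean), quantile normalization, scaling to detected probes, the deposited value table (largest difference 0.497 percent), no filter or all 9 arrays, a floor of 20, the mean of probes, the slide as a block, no block, a fit of only the 6 arrays of a contrast, trend and robust moderation, and leaving out each line, day or array. Motifs were searched in RefSeq windows of GRCm38.p6 with Python 3.11.15. Protein features were not analysed here.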

Additional observations from a re-analysis of the deposited data

Results flagged for a closer look

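The time courses of 2 D-type cyclins, Ccnd1 and Ccnd2, were flagged for opposite directions between lines. Ccnd1 from day 0 to day 3 differed by 1.23 in wild type and 1.67 in PKM1 knock-in, but by -0.75 in PKM2 knock-in. Ccnd2 from day 0 to day 7 differed by 1.55 in wild type and 3.24 in PKM1 knock-in, but by -2.74 in PKM2 knock-in. From day 3 to day 7 the Ccnd2 differences were 1.13, 3.67 and -1.22 in the same order. Each value is the difference between single arrays, and the differences between lines were not tested. The day 7 value of PKM2 knock-in comes from the array that is alone on its slide.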

How the results depend on the processing

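For day 3 against day 0, 0 members were called, among 607 genes called in all. Normexp gave 2 (Ccne1 and Rrm1) among 929 genes, the filter on all 9 arrays 2 among 677, and a floor of 20 gave 1 among 641. Only the 6 arrays compared gave 3 among 1405, and trend and robust moderation 2 among 996. Leaving out a line or array gave 0 to 4. Without PKM2 knock-in day 7 there were 4 (Ccne1, Gins2, Gins4 and Rrm1) among 1315 genes. There was 1 without the PKM2 knock-in line (among 262), PKM1 knock-in day 7 (among 887) or PKM2 knock-in day 3 (among 139). For day 7 against day 3 (0 members called, among 0 genes), 3 settings gave Ccne1 alone. These were normexp (among 35 genes), the filter on all 9 arrays (among 81) and trend and robust moderation (among 248). The slide as a block gave 5 (Ccne1, Mcm5, Rrm1, Rrm2 and Top2a, among 1061 genes). Leaving out a line or array gave 0 to 20, the 20 among 2607 genes. Leaving out both knock-in day 7 arrays was an alternative chosen after seeing the data. It gave 3 members called at day 3, among 1405 genes, and a median of -0.91 for day 7 against day 3. The cause of these moves was not tested. The median for PKM1 knock-in against wild type ran from -0.0233 to 0.1929 when a day or array was left out. No value changed sign while called. The other counts and medians of members, 283 values over all contrasts, stayed within 1.5 times or 1 SD. The SD was that of the 3 medians by line or by day. For PKM1 and PKM2 knock-in against wild type it was 0.14 and 0.34, and for PKM2 against PKM1 knock-in 0.53. The medians themselves were smaller, at 0.05, 0.28 and 0.30. In the comparisons of lines a median could thus vanish and still be counted as staying. Of named genes, 1348 values kept their side of the threshold, 61 crossed to pass and 40 ceased to. The labels give no replicate numbers, but the model itself compared days within lines and lines within days. Leaving out that other factor (no replicate block) changed no count of members called. With 9 arrays the median standard error was 0.26, and a shift of 1 was seldom called in simulation.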
